A study of Mus musculus with 18 samples.

Results

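In mouse liver, 19571 of the 246285 windows of 10 kb on chromosomes 1 to 19 (7.95%) carried lamin B1 at both 3 and 21 months of age and no H3K9me3 at either age. These windows were chosen by the positions of called regions. A window had to lie inside a called lamin B1 interval of young and of old livers and inside no called H3K9me3 region of either age. They are called lamin-only windows here, cover 195.71 Mb, and made up 59% of the 33192 windows with lamin B1 at both ages. The calls that chose them are a description and are not tested.

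Lamin B1 is a filament protein of the nuclear lamina, the meshwork under the inner nuclear membrane, and the chromatin it contacts is organized in lamina-associated domains. Such domains are known as mostly gene-poor and A/T-rich. Trimethylation of lysine 9 on histone H3 (H3K9me3) is a mark of heterochromatin, often found at the lamina and bound by HP1 proteins. Foxa2 is a forkhead transcription factor of hepatocytes, called a pioneer factor because it can bind DNA in closed chromatin.

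Chromatin immunoprecipitation with sequencing had been performed on whole livers of wild-type male C57BL/6 mice at 3 months (young) and 21 months (old), with 2 replicates for each antibody and age. Foxa2 had been profiled in other mice of the same strain at 12 weeks, in 3 Zmpste24 KO mutants and 3 wild-type littermates. Zmpste24 is the protease that matures prelamin A, and the KO mutants lack it in every tissue, so that the mutant is a whole-body model of laminopathy and not one of hepatocytes. The replicates of each condition were merged before calling, and the lists hold positions without a signal, a read count or a score. No value per animal can therefore be shown, none of the differences below was tested against the spread between animals, and H3K9me2 was not analysed here.

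The lists held 1621 young and 1517 old lamin B1 intervals and 2781 young and 2492 old H3K9me3 regions on chromosomes 1 to 19. The H3K9me3 lists used here hold fewer regions than the study describes for each age. Free of H3K9me3 means that no region of these 2 lists covered the window, not that the mark was absent, and a fuller list could cover some of the lamin-only windows. Of all stable lamin B1 windows, 19.4% carried H3K9me3 in young livers and 35.7% in old ones. Over the whole of these chromosomes the mark was called in 23.4% and 25% of windows. Exact binomial (Clopper-Pearson) intervals for shares and exact Poisson intervals for densities, both at 95%, are given below. They cover counting error only and are too narrow, because neighbouring windows are not independent.

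Lamin-only windows were dense in genes. A protein-coding start site lay in 3917 of them, or 20% (interval 19.5 to 20.6%), against 7.55% of all windows. The density was 23.8 start sites per Mb, against 8.68 per Mb over all windows. Windows with lamin B1 and H3K9me3 at both ages held a start site in 9.99% (interval 9.15 to 10.9%), and windows with neither mark at either age in 4.69% (interval 4.55 to 4.82%). The share came nearer, at 17.1% (interval 16.3 to 17.9%), in the 8947 windows with lamin B1 at both ages and H3K9me3 at 1 age. With lamin B1 in old livers only and no H3K9me3 it was 13% (interval 12.6 to 13.4%). In all, 4655 of 20807 protein-coding genes (22.4%) started in a lamin-only window, on 7.95% of the windows.

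The promoters below show the sequence class of these start sites. They are the list genes of each class with the most CpG dinucleotides, 250 bases before to 50 bases after a RefSeq start (GRCm38.p6), with each CpG in capitals. The first group started in lamin-only windows. Cebpb encodes the liver-enriched factor C/EBPβ, Ncoa1 a coactivator of nuclear receptors, and Nup153 a nucleoporin of the nuclear basket, and their promoters held 50, 49 and 45 CpG.
Cebpb, chr2:167688665-167688964, plus strand: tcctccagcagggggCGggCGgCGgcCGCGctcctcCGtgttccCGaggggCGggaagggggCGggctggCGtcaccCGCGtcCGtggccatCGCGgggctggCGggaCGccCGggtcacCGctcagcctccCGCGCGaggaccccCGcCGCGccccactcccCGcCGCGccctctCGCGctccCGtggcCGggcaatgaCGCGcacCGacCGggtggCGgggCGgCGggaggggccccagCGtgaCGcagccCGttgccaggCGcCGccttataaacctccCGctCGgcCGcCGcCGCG
Ncoa1, chr12:4477133-4477432, minus strand: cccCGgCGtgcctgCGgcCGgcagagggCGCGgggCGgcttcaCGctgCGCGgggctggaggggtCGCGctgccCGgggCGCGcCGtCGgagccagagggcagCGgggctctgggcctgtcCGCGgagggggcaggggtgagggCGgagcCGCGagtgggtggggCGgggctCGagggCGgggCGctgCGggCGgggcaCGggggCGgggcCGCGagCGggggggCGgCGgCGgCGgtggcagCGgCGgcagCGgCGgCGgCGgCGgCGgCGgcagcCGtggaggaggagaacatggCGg
Nup153, chr13:46727800-46728099, minus strand: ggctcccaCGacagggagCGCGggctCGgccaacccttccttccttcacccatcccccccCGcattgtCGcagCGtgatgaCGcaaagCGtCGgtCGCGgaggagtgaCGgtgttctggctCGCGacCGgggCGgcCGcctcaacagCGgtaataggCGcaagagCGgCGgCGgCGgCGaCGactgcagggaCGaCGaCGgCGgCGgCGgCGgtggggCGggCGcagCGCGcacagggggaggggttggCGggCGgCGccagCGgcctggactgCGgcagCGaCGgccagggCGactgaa

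The second group started in windows with lamin B1 and H3K9me3 at both ages. Hdac2 encodes a histone deacetylase, Atf7ip a partner of the H3K9 methyltransferase Setdb1, and Morc3 a chromatin ATPase of the MORC family, and their promoters held 36, 29 and 20 CpG. Only 6 list genes with a RefSeq promoter started in that class, against 78 in lamin-only windows, so the groups are examples from pools of unequal size. The Nup153 and Atf7ip promoters belong to RefSeq starts downstream of the outermost annotated starts of these genes, in the same class of window. The outermost start of Atf7ip, which was the one counted, was not in the high-CpG class described below.
Hdac2, chr10:36974294-36974593, plus strand: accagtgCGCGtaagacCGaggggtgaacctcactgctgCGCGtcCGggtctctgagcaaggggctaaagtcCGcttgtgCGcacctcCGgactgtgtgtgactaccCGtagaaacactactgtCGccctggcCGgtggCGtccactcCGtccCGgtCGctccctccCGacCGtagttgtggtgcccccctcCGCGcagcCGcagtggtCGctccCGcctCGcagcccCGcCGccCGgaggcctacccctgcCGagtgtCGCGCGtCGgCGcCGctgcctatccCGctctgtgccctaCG
Atf7ip, chr6:136518601-136518900, plus strand: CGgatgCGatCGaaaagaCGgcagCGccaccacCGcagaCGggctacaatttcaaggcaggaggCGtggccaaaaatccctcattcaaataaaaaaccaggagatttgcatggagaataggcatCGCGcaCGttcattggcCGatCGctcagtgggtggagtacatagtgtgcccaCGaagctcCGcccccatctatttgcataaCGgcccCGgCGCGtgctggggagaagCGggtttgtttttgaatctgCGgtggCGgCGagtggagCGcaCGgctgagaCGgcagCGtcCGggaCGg
Morc3, chr16:93831871-93832170, plus strand: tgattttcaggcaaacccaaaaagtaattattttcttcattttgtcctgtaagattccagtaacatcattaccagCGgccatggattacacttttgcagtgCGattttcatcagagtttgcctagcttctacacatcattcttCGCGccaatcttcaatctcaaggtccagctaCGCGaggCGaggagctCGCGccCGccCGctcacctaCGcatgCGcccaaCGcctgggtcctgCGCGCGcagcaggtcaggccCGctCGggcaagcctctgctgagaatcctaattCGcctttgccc

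Most start sites in lamin-only windows were of the high-CpG kind. A start site was put in this class when a stretch of 500 bases near it reached a GC content of 55% and a ratio of observed to expected CpG of 0.75. This held for 2955 of the 4655 start sites, or 63.5% (interval 62.1 to 64.9%), against 46.6% of all protein-coding start sites. The share was 51.8% (interval 47.4 to 56.1%) where lamin B1 and H3K9me3 were both present at both ages, and 24.5% (interval 23.3 to 25.8%) in windows with neither mark. It was highest, at 67.2% (interval 63.5 to 70.7%), in windows with lamin B1 in young livers only and no H3K9me3.

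**Figure D1:**
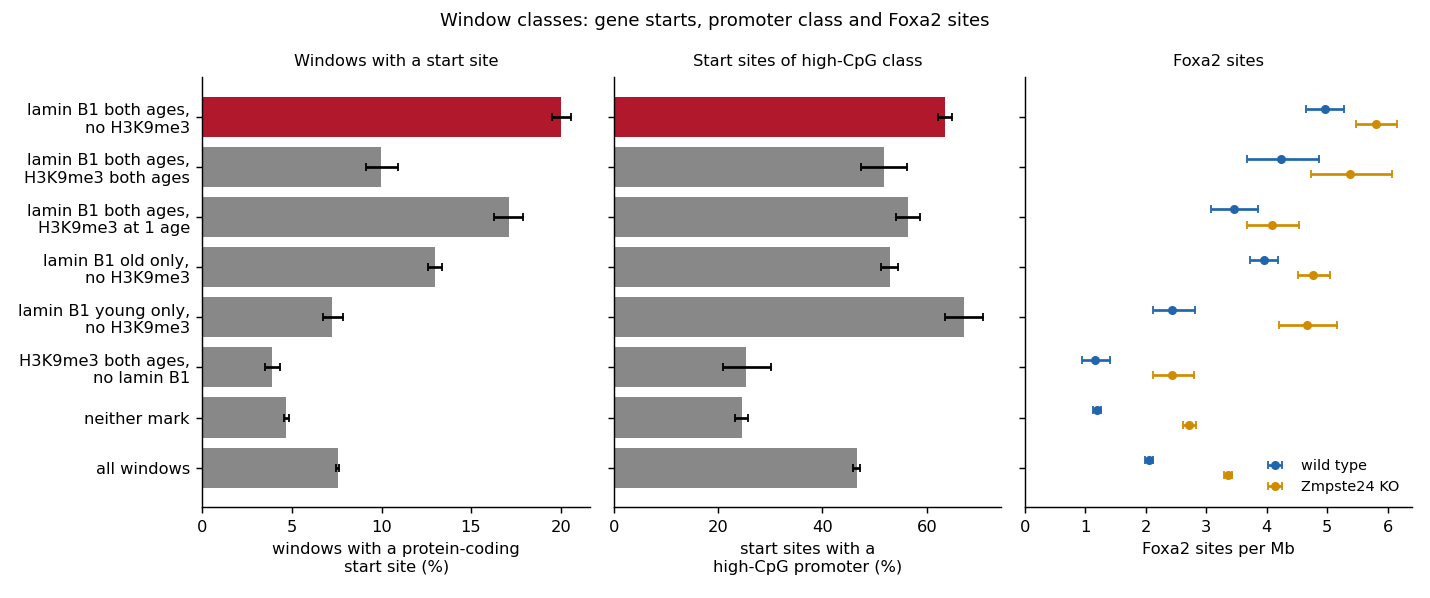
Share of 10 kb windows with a protein-coding start site (left), share of start sites in the high-CpG class (middle) and Foxa2 sites per Mb in wild type and Zmpste24 KO (right), for 7 classes of window and all windows. Bars and points are values from merged lists with exact 95% intervals for counting error. The lamin-only windows (red) stood at 20% of windows with a start site, above the other classes drawn.

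Gene bodies filled much of this chromatin. Protein-coding gene bodies covered 67.5% of the bases in lamin-only windows, against 49.4% with both marks at both ages, 33.6% with neither mark and 41.4% over all windows. They covered 58.9% with H3K9me3 at 1 age and 58.1% with lamin B1 in old livers only and no H3K9me3. Annotated exons made up 10.1% of the bases, against 5.48% with both marks and 3.86% over all windows. The genes that started in lamin-only windows had a median length of 17.6 kb (quartiles 7.49 and 39.5 kb), and 82.2% of them (3825) lay in such windows from end to end. The share of genes wholly inside their class was 67.8% with both marks at both ages and 86.3% with neither mark. It was 79.9% with lamin B1 in old livers only and no H3K9me3.

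GC content was nearly the same in lamin-only windows and in windows with both marks. It was 45.5% in lamin-only windows, 45.1% with H3K9me3 at both ages and 47% with H3K9me3 at 1 age, against 39.5% with neither mark and 41.9% over all windows. Across the 19 chromosomes the lamin-only value averaged 45.3% ± 0.783 (SD, n = 19 chromosomes). It exceeded that of windows with both marks on 10 of 19 chromosomes, that of windows with H3K9me3 at 1 age on 1 and that of windows with neither mark on all 19. CpG dinucleotides numbered 12.3 per kb in lamin-only windows, 12.4 with both marks, 13.4 with H3K9me3 at 1 age and 6.45 with neither. Soft-masked repeats covered 29.3% of the bases, against 28.5% with both marks and 39% with neither.

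The higher share of windows with a start site held on most chromosomes. It ranged from 14.8% on chromosome 18 to 26.5% on chromosome 7, with a median of 18.9%. The share exceeded that of windows with both marks on 17 of 19 chromosomes, that of windows with H3K9me3 at 1 age on 16, and those of windows with lamin B1 in old livers only and with neither mark on all 19. The exceptions to the first comparison were chromosomes 18 and 19, and chromosome 19 held only 19 windows with both marks.

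**Figure D2:**
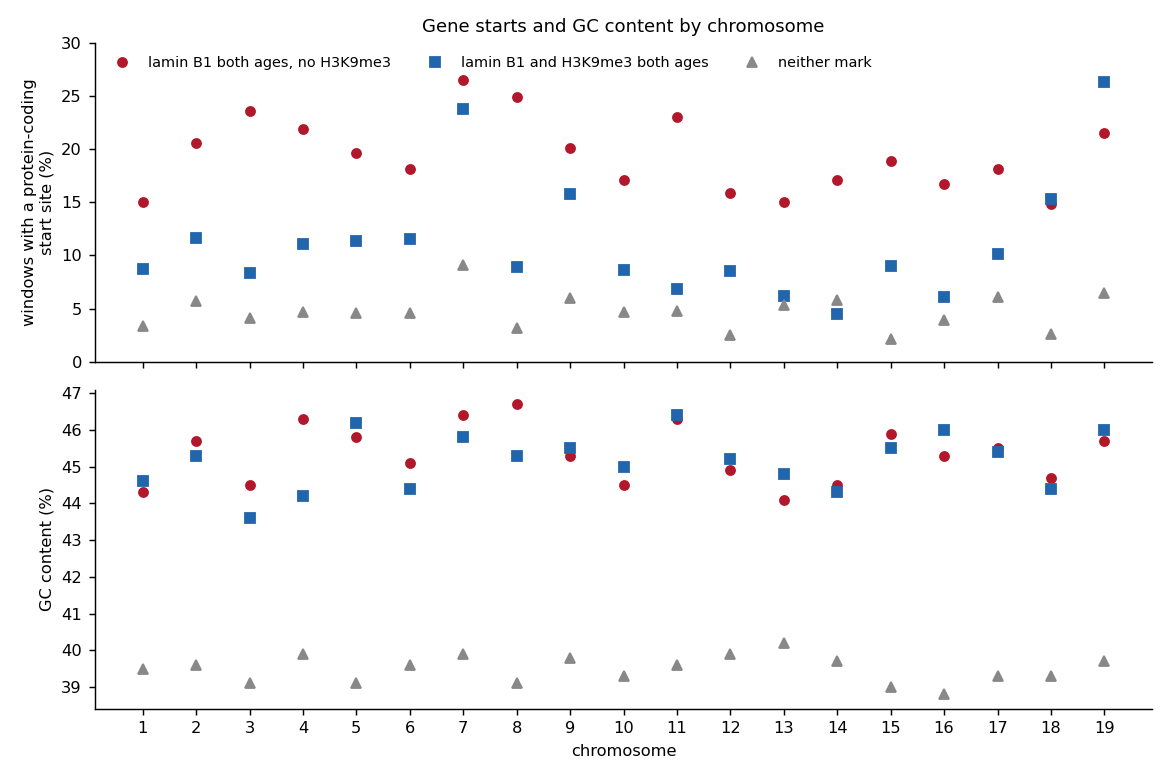
Share of windows with a protein-coding start site (top) and GC content (bottom, axis not from 0) on each of chromosomes 1 to 19, for lamin-only windows (red circles), windows with lamin B1 and H3K9me3 at both ages (blue squares) and windows with neither mark (grey triangles). Each point is 1 chromosome. The red circles lay above the blue squares on 17 chromosomes in the upper panel and on 10 in the lower panel.

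Within bands of equal GC content the gap to windows with both marks remained. Bands were 2 percentage points wide and were compared where each class held at least 100 windows. The share with a start site was higher in lamin-only windows in 6 of 7 bands. Between 44% and 46% GC it was 18.2% of 4532 lamin-only windows against 7.38% of 1355 windows with both marks, and between 46% and 48% it was 26.1% against 13.4%. The gap to windows with neither mark was smaller at equal GC. Their share was 13.3% and 22.4% in the same bands, and lamin-only windows were higher in 4 of 7 bands.

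Lamin-only windows were joined into 1350 runs where they were adjacent. The shortest run was 10 kb, the median 100 kb (quartiles 50 and 190 kb) and the longest 1620 kb. Runs of 5 or more windows numbered 1040 and held 95.9% of the windows, and 48 runs of at least 50 windows held 16.7%. A protein-coding start site was missing from 275 runs (20.4%), whose median length was 40 kb and whose longest was 300 kb. Members lay in 935 young and 804 old lamin B1 intervals (57.7% and 53% of them), and 130 young and 99 old intervals consisted of members only. Their share of a chromosome's windows ran from 4.36% on chromosome 1 to 18.9% on chromosome 11. Their share of the stable lamin B1 windows ran from 41.9% on chromosome 10 to 75.6% on chromosome 19.

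The longest run lay on chromosome 16 from 10310001 to 11930000 (mm10). It coincided with a young lamin B1 interval of 1620 kb inside an old one of 2030 kb. The nearest H3K9me3 regions were 100 kb away in young and 110 kb in old livers. It held 23 protein-coding start sites, 10 of them high-CpG. Among these genes are Ciita, the transactivator of MHC class II genes, Socs1, an inhibitor of cytokine signalling, Litaf, a lysosomal membrane protein, and the protamine genes Prm1, Prm2 and Prm3, which package sperm DNA. Wild-type livers had 8 Foxa2 sites in the run and mutant livers 5.

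**Figure D3:**
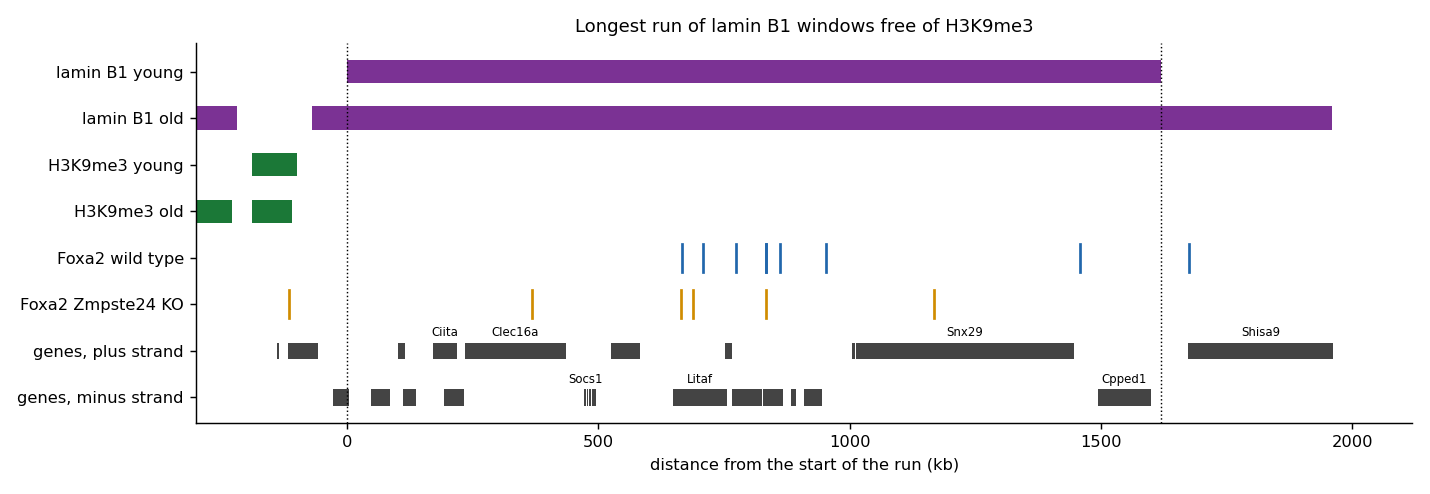
Map of the longest run of lamin-only windows, in kb from its start. Bars are called lamin B1 and H3K9me3 regions of young and old livers and protein-coding genes of both strands, ticks are Foxa2 sites, and dotted lines mark the ends of the run. The young lamin B1 interval and the run coincide over 1620 kb, with no H3K9me3 region between the dotted lines.

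The next runs by length lay on chromosomes 11, 6, 18 and 6. The run on chromosome 11 from 75990001 to 77190000 held 20 start sites, among them Slc6a4, the serotonin transporter, and Blmh, a cysteine protease. The run on chromosome 6 from 133910001 to 135030000 held 11, among them Cdkn1b, the cyclin-dependent kinase inhibitor p27, Lrp6, a Wnt co-receptor, and Etv6, an ETS repressor. It had 11 wild-type and 10 mutant Foxa2 sites. The run on chromosome 18 from 74770001 to 75850000 held 8, among them Acaa2, the last enzyme of mitochondrial fatty acid oxidation, Lipg, endothelial lipase, and Smad7, an inhibitor of TGF-β signalling. The run on chromosome 6 from 71900001 to 72910000 held 20, among them Mat2a, which makes S-adenosylmethionine, and Retsat, retinol saturase, with 8 wild-type and 16 mutant Foxa2 sites.

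The remaining 5 of the 10 longest runs measured 760 to 920 kb. The densest in genes lay on chromosome 11 from 77750001 to 78600000 with 34 start sites (40 per Mb), 24 of them high-CpG. The sparsest lay on chromosome 13 from 111770001 to 112540000 with 3 start sites, those of Map3k1, Ankrd55 and Il6st. For contrast, the longest run with lamin B1 and H3K9me3 at both ages was 530 kb on chromosome 14 from 118170001, with 2 start sites. The longest run with lamin B1 in old livers only and no H3K9me3 was 1870 kb on chromosome 5 from 34760001, with 21.

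Of the 2700 ends of runs, 1153 (42.7%) met a lamin B1 window that carried H3K9me3. At 801 of these the mark was called in old livers only, at 242 in young livers only and at 110 at both ages. Of all stable lamin B1 windows, 7167 carried H3K9me3 in old livers only, 1780 in young livers only and 4674 at both ages, so that windows marked in old livers only were also the most numerous over all of these windows. At the remaining 1547 ends a lamin B1 interval of 1 or both ages stopped. Lamin B1 continued in old livers only at 781 ends (28.9%) and in young livers only at 629 (23.3%). The median distance from a lamin-only window to the nearest H3K9me3 region was 340 kb for young and 140 kb for old livers. An old region was the nearer one for 68.6% of the windows and a young one for 22.2%. The covered length of H3K9me3 was 575.56 Mb at the young age and 616.41 Mb at the old age. Only the name of each H3K9me3 list gives its age, and if the names were exchanged, every young and old value of H3K9me3 in this paragraph would change places.

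Gene starts dropped at the edges of the runs. Just inside an edge to H3K9me3-bearing lamin B1 windows, 21.6% of 1153 windows held a start site (interval 19.3 to 24.1%). In the first window outside it was 14.6% (interval 12.6 to 16.7%), while GC content went from 45.8% to 46.7%. Where lamin B1 ended, 24.8% of 1547 windows just inside held a start site (interval 22.7 to 27.1%) and 15.9% just outside (interval 14.1 to 17.8%), with GC content at 44.5% and 43.4%. In the interior, 20 to 90 kb from such an edge, the share lay between 17.4% and 20.3%. The outermost window of a run at a lamin B1 end was therefore richer in start sites than windows deeper inside, and at H3K9me3 edges the values inside ran from 16.3% to 22% without such a step.

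**Figure D4:**
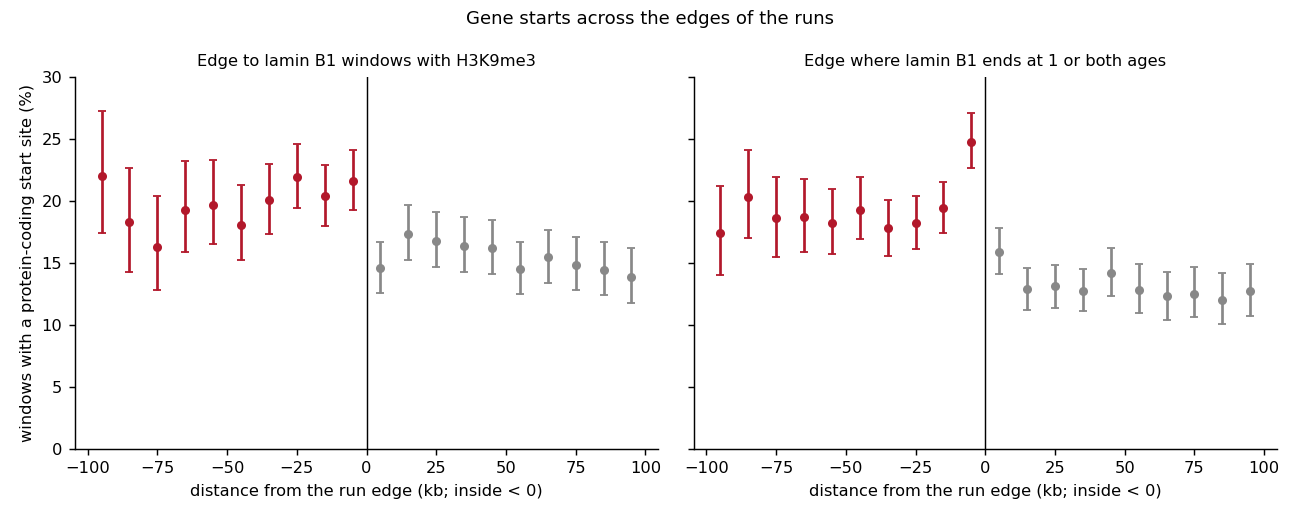
Share of windows with a protein-coding start site by distance from the edge of a run, for edges to lamin B1 windows with H3K9me3 (left) and edges where lamin B1 ends at 1 or both ages (right). Points are shares over all runs with exact 95% intervals, red inside and grey outside the run, and a window of a short run can be counted from both ends. The share stepped from 21.6% to 14.6% across the left edge and from 24.8% to 15.9% across the right one.

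Among the liver gene lists, hepatocyte transcription factors, fatty acid oxidation and glucose metabolism had intervals above the background in lamin-only windows, and the other liver lists did not. The lists below were written with earlier results of these data known, and counts are read beside the 22.4% of all protein-coding genes. Of 20 hepatocyte transcription factor genes, 11 started there (55%, interval 31.5 to 76.9%). A further 5 started in stable lamin B1 windows with H3K9me3 at 1 age, where 8.57% of all protein-coding genes started. Another 3 started in windows with lamin B1 in old livers only and no H3K9me3, which held 19.3% of all. The 11 include Foxa1 and Foxa3, the paralogs of Foxa2, Cebpa and Cebpb, basic leucine zipper factors, and Creb3l3, a membrane-bound factor of fasting metabolism. Foxa2 itself started in a window with neither mark.

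Cebpa (chromosome 7, 35119293 to 35121928) lay in a run of 120 kb, 60 kb from a young and 50 kb from an old H3K9me3 region, and had 2 wild-type and 1 mutant Foxa2 sites within 10 kb of its start. Foxa1 (chromosome 12, 57540628 to 57546916) lay in a run of 80 kb with 1 wild-type site. Foxa3 (chromosome 7, 19013284 to 19023538) lay in a run of 50 kb, 10 kb from an old H3K9me3 region, with no site in either list. Distances to H3K9me3 thus ranged widely within this list, and Creb3l3 directly adjoined an old region.

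Of 36 genes of fatty acid oxidation and ketogenesis, 17 started in lamin-only windows (47.2%, interval 30.4 to 64.5%). Cpt1b alone started in a window with both marks at both ages, where 2.55% of all protein-coding genes started. Cpt1a, the rate-limiting carnitine palmitoyltransferase of liver, lay in a run of 750 kb on chromosome 19, 4000 kb from the nearest young and 1550 kb from the nearest old H3K9me3 region, with 1 Foxa2 site in each genotype. Ehhadh, the peroxisomal bifunctional enzyme, started in a run of 120 kb, extended beyond it and also had 1 site in each. Fgf21, a fasting hormone, directly adjoined an old H3K9me3 region, 240 kb from the nearest young one.

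Glucose metabolism had 12 of 30 genes starting in lamin-only windows (40%, interval 22.7 to 59.4%). Among them were G6pc, the glucose-6-phosphatase of gluconeogenesis, in a run of 590 kb, and Pklr, liver pyruvate kinase. The Pklr gene started in a run of 120 kb that ended at an old H3K9me3 region, and it extended past that end. Lipogenesis and lipid droplets had 13 of 40 (32.5%, interval 18.6 to 49.1%). A further 20 started in windows with lamin B1 in old livers only and no H3K9me3, where 19.3% of all protein-coding genes started. Acaca, acetyl-CoA carboxylase, started in a run of 880 kb on chromosome 11, and most of the gene lay beyond the end of the run. Hmgcs1, of cholesterol synthesis, had 3 wild-type and 0 mutant Foxa2 sites within 10 kb. The interval of the lipogenesis list includes 22.4%.

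Nuclear receptors and coactivators had 8 of 28 genes there (28.6%), including Nr1h3, the oxysterol receptor LXRα, and Nr0b2, the corepressor SHP. Secreted liver proteins had 7 of 35 (20%), close to the background. Another 15 started in windows with lamin B1 in old livers only and no H3K9me3, and 10 in windows with neither mark. Of all protein-coding genes, 19.3% and 23.2% started in these classes. Ttr, transthyretin, Apoa2, an apolipoprotein of HDL, Vtn, vitronectin, and Angptl4, an inhibitor of lipoprotein lipase, each had 1 Foxa2 site within 10 kb in both genotypes. Nuclear lamina genes had 8 of 25 (32%), among them Lmna, which encodes lamin A/C, in a run of 290 kb. Genes of H3K9 methylation had 9 of 30 (30%), among them Trim28, the corepressor KAP1, and Hdac3, a deacetylase that contacts the lamina. The intervals of these 4 lists all include 22.4%.

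Genes used in every cell stood beside the liver genes. Proteasome subunits had 13 of 31 genes in lamin-only windows (41.9%, interval 24.5 to 60.9%), and cytosolic ribosomal protein genes 27 of 76 (35.5%, interval 24.9 to 47.3%). None of these ribosomal protein genes started in windows with both marks at both ages, where 2.55% of all protein-coding genes started. None of 36 neuronal genes started there (interval up to 9.74%). Markers of other liver cell types had 1 of 12 for Kupffer cells (Cd68), 1 of 12 for stellate cells (Acta2), 3 of 12 for sinusoidal endothelium (Clec4g, Pecam1 and Stab1) and 2 of 11 for cholangiocytes, counts too small to set apart from the background. Whole liver was used, and the part of each cell type in the lamin B1 calls was not tested.

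Large tandem gene families were rare. Of 1128 olfactory receptor genes, 10 started in lamin-only windows (0.887%), of 327 vomeronasal receptor genes none, and of 57 clustered protocadherin genes none. Genes named Zfp, most of which encode zinc finger proteins, had 54 of 385 (14%, interval 10.7 to 17.9%) there. They had 49 in windows with lamin B1 and H3K9me3 at both ages and 48 in windows with H3K9me3 at both ages and no lamin B1. Of all protein-coding genes, 2.55% and 1.71% started in these classes, and 23.2% in windows with neither mark. Cytochrome P450 genes had 6 of 98 (6.12%), with Cyp1a1 and Cyp1a2 among them, and 46 in windows with neither mark. None of 21 UDP glucuronosyltransferase genes and none of 22 major urinary protein genes started in lamin-only windows, with 14 and 19 of them in windows with neither mark. Of 39 Hox genes, 4 (Hoxb6 to Hoxb9) started in lamin-only windows and 18 in windows with both marks. Family members sit in clusters, so their counts are not independent of each other.

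**Figure D5:**
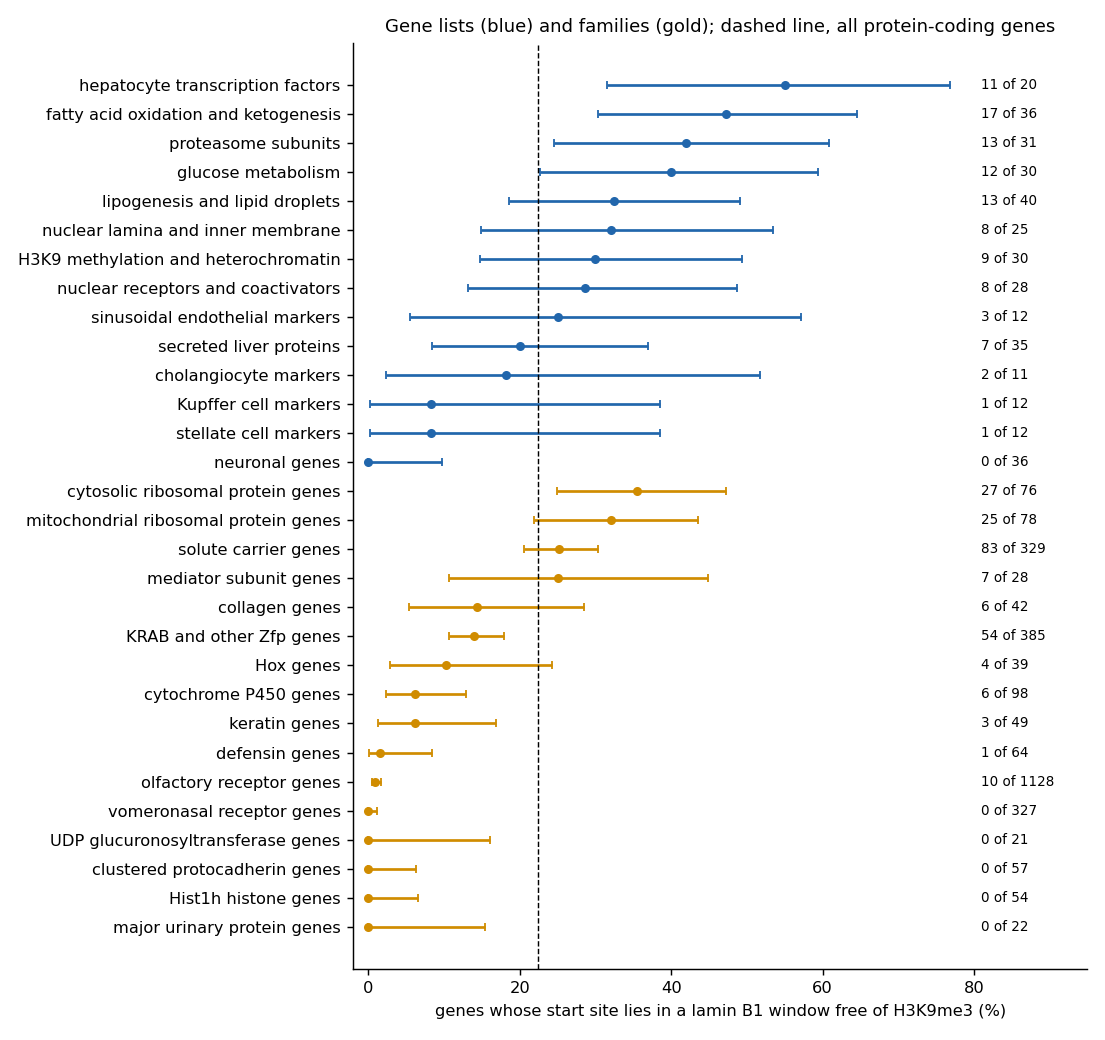
Share of the genes of each list (blue) and name-based family (gold) whose start site lies in a lamin-only window, with exact 95% intervals. The dashed line is the share of all protein-coding genes (22.4%) and the counts stand at the right. Hepatocyte transcription factors reached 55%, and neuronal, vomeronasal receptor and protocadherin genes were at 0.

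Foxa2 sites, called in other mice, were denser in lamin-only windows than over all windows (2.05 per Mb in wild type and 3.36 in the mutant). The wild-type list had 971 sites with their midpoint there, or 4.96 per Mb (interval 4.65 to 5.28). The density was 4.24 per Mb (interval 3.67 to 4.87) with lamin B1 and H3K9me3 at both ages, 3.45 with H3K9me3 at 1 age, and 1.19 with neither mark. With lamin B1 in old livers only and no H3K9me3 it was 3.95 (interval 3.72 to 4.19). The windows with H3K9me3 at 1 age had 2.92 per Mb where it was in old livers only. Where it was in young livers only they had 5.62, and these ages rest on the list names. Of the lamin-only windows, 4.7% held a wild-type site, against 1.91% of all windows. In the Zmpste24 KO list 1136 sites fell there, or 5.8 per Mb (interval 5.47 to 6.15), against 5.37 (interval 4.73 to 6.08) with both marks and 2.72 with neither. The mutant density was 4.09 with H3K9me3 at 1 age and 4.77 with lamin B1 in old livers only and no H3K9me3. A mutant site lay in 5.56% of the lamin-only windows, against 3.16% of all windows.

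The difference from windows with both marks was within or near the counting error. The ratio of densities was 1.17 (interval 1 to 1.37) for wild type and 1.08 (interval 0.942 to 1.24) for the mutant. Windows with 3 or more sites of 1 genotype weighed on it, since 11 windows with both marks held 29 wild-type and 31 mutant sites, while 4 lamin-only windows held 9 and 7. Without such windows the ratio was 1.36 and 1.22. At equal GC content the wild-type density was higher in lamin-only windows than with both marks in 3 of 7 bands and the mutant density in 5 of 7. The 3 bands lay between 44% and 50% GC, at 4.88 against 2.95, 6.34 against 3.1 and 6.55 against 4.18 per Mb. In the others it was lower, at 1.78 against 12.9, 3.42 against 4.26, 3.1 against 3.39 and 7.44 against 7.82. The widest of these gaps, from 38% to 40% GC, rests on 124 windows with both marks. By chromosome, the wild-type and mutant densities were higher on 14 and 13 of 19. Against windows with neither mark, both densities were higher in 7 of 7 bands.

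Mutant sites were less concentrated in this chromatin than wild-type sites. Lamin-only windows held 19.8% of the wild-type sites (interval 18.7 to 20.9%) and 14.1% of the mutant sites (interval 13.4 to 14.9%). The mutant list was longer, with 1.64 mutant sites for each wild-type site on these chromosomes. In lamin-only windows the ratio was 1.17, with both marks 1.27, and with neither mark 2.29. It was 1.18 with lamin B1 at both ages and H3K9me3 at 1 age. Without H3K9me3 it was 1.21 with lamin B1 in old livers only and 1.91 with lamin B1 in young livers only. The low ratio was therefore not particular to lamin-only windows. The mutant reads had been reduced to the wild-type number before calling, and whether animals within a genotype differ in these shares was not tested.

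Of the 971 wild-type sites, 297 (30.6%, interval 27.7 to 33.6%) overlapped a mutant site, against 27.3% of all wild-type sites. The share was higher, at 36.4% (interval 29.7 to 43.5%), with both marks at both ages. With lamin B1 in old livers only and no H3K9me3 it was 35.6% (interval 32.8 to 38.6%), and with neither mark 25.1%. The word TGTTTAC, the core of the forkhead motif, was read on both strands. In lamin-only windows it occurred in 45.1% of the 297 shared sites (interval 39.4 to 51%) and in 24.3% of the 674 called in wild type only (interval 21.1 to 27.8%). Over all windows the shares were 43.9% and 21.7%. Sites in both lists were narrower, with a median of 628 bases against 1004.

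The stretches below show the word at sites of both lists inside lamin-only windows. They are 300 bases at the middle of sites with the most forkhead words, from GRCm38.p6, with TGTTTAC or its reverse complement in capitals. The Ubald1 site lay 0.354 kb from the start of Ubald1, a UBA-like domain gene, outside gene bodies and in a run of 310 kb. The Mrnip site lay in an intron of Mrnip, a DNA repair gene, in another run of 310 kb. The Ahcyl2 site lay in an intron of Ahcyl2, an adenosylhomocysteinase-like gene, 67.8 kb from the nearest start, that of Strip2. A site at Mpzl1 had 3 words in all but none in its middle and is not shown. Of the 31396 RefSeq promoters of 300 bases that were searched, 3.71% hold the word, and a match is a description and not a binding site.
Ubald1 site, chr16:4880519-4880818, plus strand: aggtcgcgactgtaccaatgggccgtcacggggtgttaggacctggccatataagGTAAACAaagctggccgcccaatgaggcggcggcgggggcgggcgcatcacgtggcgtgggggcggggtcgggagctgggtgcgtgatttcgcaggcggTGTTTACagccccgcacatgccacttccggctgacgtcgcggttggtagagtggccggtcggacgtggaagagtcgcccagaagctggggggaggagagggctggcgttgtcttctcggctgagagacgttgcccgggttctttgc
Mrnip site, chr11:50184843-50185142, plus strand: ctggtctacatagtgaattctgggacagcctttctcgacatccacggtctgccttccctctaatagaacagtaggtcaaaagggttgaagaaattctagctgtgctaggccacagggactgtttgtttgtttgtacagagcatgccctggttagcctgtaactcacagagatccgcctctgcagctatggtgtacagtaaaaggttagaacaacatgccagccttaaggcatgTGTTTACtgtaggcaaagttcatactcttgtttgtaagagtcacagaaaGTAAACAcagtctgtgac
Ahcyl2 site, chr6:29849036-29849335, plus strand: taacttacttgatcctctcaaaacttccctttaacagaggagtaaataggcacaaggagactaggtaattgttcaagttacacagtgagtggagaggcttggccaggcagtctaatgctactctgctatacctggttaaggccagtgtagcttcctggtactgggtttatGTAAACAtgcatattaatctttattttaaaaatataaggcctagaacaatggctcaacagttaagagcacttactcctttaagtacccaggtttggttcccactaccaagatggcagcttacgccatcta

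Across whole windows the forkhead word was not more frequent in this chromatin. It occurred 0.14 times per kb in lamin-only windows, 0.145 with both marks, 0.167 with neither mark and 0.157 over all windows. The lamin-only value lay below that of windows with neither mark on all 19 chromosomes, and above that of windows with both marks on 10. At equal GC content the order against windows with neither mark turned, and the word was more frequent in lamin-only windows in 5 of 7 bands. The GATA word AGATAA followed the same order across whole windows (0.577, 0.611 and 0.837 per kb), and the GC-rich Klf word GGGCTGG the opposite one (0.425, 0.361 and 0.155 per kb).

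The median distance from a wild-type site to the nearest protein-coding start was 9.9 kb, against 26 kb over all sites, in chromatin with 23.8 against 8.68 starts per Mb. Of the wild-type sites, 18.5% (interval 16.1 to 21.1%) lay within 1 kb of a start, against 11.8% of all wild-type sites. In introns lay 52.3% of them, where introns made up 57.3% of the bases. Of the mutant sites, 11.8% (interval 9.98 to 13.8%) lay within 1 kb of a start, against 5.14% of all mutant sites. Seen from the genes, 581 of the 4655 starts (12.5%) had a wild-type site within 10 kb, 593 (12.7%) a mutant site and 216 (4.64%) both. With both marks at both ages the shares were 9.98%, 12.6% and 5.08% of 531 starts, and with neither mark 4.85%, 6.7% and 1.93% of 4823. With lamin B1 in old livers only and no H3K9me3 they were close to the lamin-only values, at 11.4%, 11.8% and 4.75% of 4023.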

How the data were processed

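The deposited files used here are 6 lists of genome positions, with no signal or score: called lamin B1 and H3K9me3 regions of young and old livers, and called Foxa2 sites of wild-type and Zmpste24 KO livers. Per the study's methods, the authors mapped reads with BWA (mm10), used Picard to drop duplicates, kept unique alignments and pooled the replicates of a condition before calling. Epic (windows of 10 kb, gap of 3 windows) gave the lamin B1 domains, and PeakSeq gave the Foxa2 sites against input, with mutant reads downsampled. The methods name no caller for H3K9me3, and the submitters' processing notes name SICER. Only the name of an H3K9me3 list gives its age, and exchanging the ages would not change the members but would exchange all young and old values of H3K9me3. The lists hold no read depth. The study's supplement gives it per merged condition, with more H3K9me3 reads and fewer lamin B1 reads in old than in young livers, and the part of depth in the calls was not tested.

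The genome was cut into windows of 10 kb, and every window was classed by the called regions that contain it. All 19571 members were used. Foxa2 sites were placed by midpoint and called in both genotypes at an overlap of at least 1 base. Genes were those of GENCODE vM21, with 1 outermost start per gene, and sequence came from GRCm38.p6. The named regions included the 10 longest runs and, for contrast, the longest runs of other classes. Named genes were genes in the 5 longest runs, list genes starting in member windows and genes nearest to named sites. Hdac2, Atf7ip and Morc3 were list genes starting in windows with both marks, named for their printed promoters. Map3k1, Ankrd55 and Il6st, in the sparsest of the 10 longest runs, and Ahcyl2, which holds a named site, were named in addition. Foxa2, Cpt1b and the members of families were also named in addition, after their values were seen. Some list genes are not reported here. The members and lists were chosen with earlier results of these data known. No tests were run. The code was tested on simulated data. Python 3.11.15, numpy 2.4.6, scipy 1.17.1 and matplotlib 3.10.9 were used. Coordinates count the first base as 1.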

Additional observations from a re-analysis of the deposited data

How the results depend on the processing

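No paired analysis was possible because the replicates had been merged before calling, and for the same reason no replicate could be left out. Of 54 values computed under other settings, 46 stayed within the counting interval, the SD over chromosomes or 1.5 times the count, and none reversed. Keeping only windows at least 30 kb inside lamin B1 intervals of both ages raised the ratio of Foxa2 densities, lamin-only windows over windows with both marks, to 1.39 for wild type and 1.32 for the mutant. Counting starts of all annotated genes gave 30.8% of lamin-only windows with a start and a ratio of start densities of 1.47 to windows with both marks, and counting every transcript start gave 27.2% and 2.4, against 20% and 2.09. A looser promoter rule (observed to expected CpG of 0.6 and GC content of 50%) put 74.7% of starts in the high-CpG class, and counting TATTTAC as well as TGTTTAC gave 0.303 words per kb, since both rules admit more sequences. Leaving out windows with 3 or more Foxa2 sites was chosen after seeing the data. In runs of at least 50 kb the ratio of Foxa2 densities to windows with both marks rose to 1.35 for wild type and 1.23 for the mutant. These values are just under the upper ends of the counting intervals, 1.37 and 1.24. Runs of at least 50 kb, a distance of 30 kb to H3K9me3 and leaving out windows with mostly unknown bases moved no value beyond those limits. The last of these settings kept all 19571 members, so it could not move the values of the members themselves, which are counted among the 46.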

Other observations

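Other kinds of genes were spread unevenly. Of all 51229 annotated genes on these chromosomes, protein-coding ones included, 8156 started in lamin-only windows. Of 190 bidirectional promoter lncRNA genes, 54 (28.4%) started there, and of 2913 antisense genes 582 (20%). Pseudogenes were rarer, with 28 of 1789 unprocessed ones (1.57%) and 768 of 8924 processed ones (8.61%), and no immunoglobulin V gene of 218 or T cell receptor V gene of 144 started there. Of 2054 miRNA genes, 348 (16.9%) did.

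Stable lamin B1 windows with H3K9me3 at 1 age differed by that age. A start site lay in 18.3% of the 7167 windows marked in old livers only (interval 17.4 to 19.2%), near the 20% of lamin-only windows, and in 12.4% of the 1780 marked in young livers only (interval 10.9 to 14%). Wild-type Foxa2 sites went the other way, with 2.92 per Mb where the mark was called in old only and 5.62 per Mb where it was called in young only. These ages rest on the names of the H3K9me3 lists, and the values would change places if the names were exchanged. Of the windows with 3 or more Foxa2 sites of 1 genotype, 4 adjacent ones with both marks lay at the start of the assembled chromosome 9, from 3000001 to 3040000, each with 2 to 5 wild-type and 3 or 4 mutant sites at a GC content of 34.8 to 37.5%.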
